A study of Mus musculus with 20 samples.

Results

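Osteosarcomas of p53R270H/+ mice (R270H tumours, n = 5) were set against osteosarcomas of p53R172H/+ mice (R172H tumours, n = 6), across all genes of the deposited count table. These 11 tumours were chosen by the genotype in their labels from a series of 20 libraries, and expression was read by bulk sequencing of RNA from snap-frozen primary tumours. Every mouse of both groups had a C57BL/6J and 129S/SvJae mixed strain background and carried 1 missense allele and 1 wild-type allele of Trp53. The labels do not give the age or sex of the mice, the site of a tumour, whether the wild-type allele was still present in a tumour, or the batches of library preparation and sequencing. They do not say that 2 tumours of a group came from separate mice, so the p-values measure a spread between tumours. In edgeR that spread was estimated over all 18 tumours of the series, p53+/- and p53R245W/+ ones included. Fold changes are R270H minus R172H on the log2 scale, and levels are TMM-scaled CPM (counts relative to each M of library depth), which correct for depth and composition but not for gene length.

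The groups also differ in how their libraries are titled. All 6 R172H titles hold a serial number before the tumour's own code, and none of the 5 R270H titles holds one. Title style and genotype therefore cannot be told apart within these 11 tumours. The p53+/- tumours of the same series (p53 het) are the only genotype with both styles, as p53 het 3 and 4 lack the serial number and p53 het 1 and 2 have it. Their difference, without minus with serial number, is given beside the main results. It rests on 2 tumours of each style, which also differed in tissue genes. Summed posterior Hox genes stood at 0.420 and 14.3 CPM in p53 het 3 and 4, against 98.6 and 86.7 CPM in p53 het 1 and 2. All 23 skeletal muscle genes tested were higher without the serial number. Title style and such tumour differences cannot be told apart in this difference, or where title style is a covariate.

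p53 is a tetrameric transcription factor that induces cell cycle arrest and apoptosis genes after stress, and most cancer mutations of it are missense changes in the DNA-binding domain. Mouse R172H corresponds to the human structural hotspot, in which the fold of the domain is disturbed. Mouse R270H corresponds to a human contact hotspot, in which a residue that touches DNA is lost. Mice with such alleles are used as models of Li-Fraumeni syndrome and develop osteosarcomas, malignant bone tumours whose cells make osteoid. Whether the hotspot mutants differ in gain-of-function activity is the question named in the series title.

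Total counts were 20.7 to 26.8 M (megacounts) in R270H and 20.1 to 28.8 M in R172H libraries. A count of 3, the limit that a count of 0 allows, was 0.112 to 0.145 CPM in R270H and 0.104 to 0.149 CPM in R172H libraries, and such limits cover counting error only. Correlations of log2 CPM between pairs of the 11 libraries lay between 0.908 and 0.968. Bone markers were present throughout: Col1a1, the main collagen of bone, averaged 33919 ± 13945 CPM in R270H and 32222 ± 23662 CPM in R172H tumours (SD, n = 5 and 6). None of 20 osteoblast and osteocyte genes was at 0 throughout a group. Library R172H 2 had 133 CPM of Xist, against 917 to 1589 CPM in R270H and 701 to 1597 CPM in the other R172H libraries. The Y-linked genes Ddx3y, Eif2s3y, Kdm5d and Uty summed to 0 CPM in R172H 2 and to at most 0.0468 CPM in any of the 11 libraries. Trp53 itself (chromosome 11, 69580359 to 69591873, GRCm38) stood at 44.0, 25.5, 29.98, 52.1 and 30.2 CPM in R270H tumours 1 to 5, against a lowest of 36.2, a median of 44.3 and a highest of 66 CPM in R172H tumours. The groups overlapped, and the log2 difference of -0.44 had an exact two-sided permutation p of 0.113 over 462 splits, the smallest possible being 0.00216. Without R270H 4 the difference was -0.58 and the exact permutation p 0.0476. Gene counts do not tell the mutant from the wild-type allele, so this is no check of the genotype labels.

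Of 20616 genes tested, 1088 passed an adjusted p of 0.05 (5.28%) in edgeR's quasi-likelihood test with Benjamini-Hochberg adjustment. Of these, 703 were higher (3.41%) and 385 lower (1.87%) in R270H than in R172H tumours. Among 15050 protein-coding genes 534 were higher (3.55%) and 254 lower (1.69%). An unadjusted p under 0.05 was reached by 4779 genes (23.2%). The 2 groups did not overlap for 1585 genes (7.69%), of which 814 were among the called genes. The split between directions depended on the tool and the filter, since DESeq2 called 2226 genes (10.8%), 1216 higher and 1010 lower, and a filter at a mean of 1 CPM left 579 higher and 473 lower. The count also depended on single libraries: it fell below 1088 by over 1.5 times without R270H 1 (472), R270H 3 (540), R270H 4 (621) or R270H 5 (685), and without R172H 1 (551), R172H 3 (469), R172H 4 (552) or R172H 5 (712). A set of 321 genes, 224 higher and 97 lower, remained called without each of the 11 libraries in turn.

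Most called genes differed in the same direction between the title styles of p53 het tumours. Of the 703 genes higher in R270H, 556 (79.1%) were also higher in p53 het without than with the serial number, and of the 385 lower genes 76.9% were also lower there, against 50.5% of all tested genes above 0. With title style as a covariate, which rests on those 4 p53 het libraries alone, 1 gene was called (0.00485%), and 1778 had an unadjusted p under 0.05 (8.62%). The median log2 fold of the 703 higher genes was then 0.51 in place of 1.07, and 598 kept their sign; that of the 385 lower genes was -0.67 in place of -1.10, and 372 kept theirs. The median standard error of the higher genes was 0.43 with the covariate and 0.24 without it. Title style cannot be removed more precisely with these libraries, so every result below holds for the libraries as labelled, and the part of title style in it cannot be told apart from genotype.

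**Figure D1:**
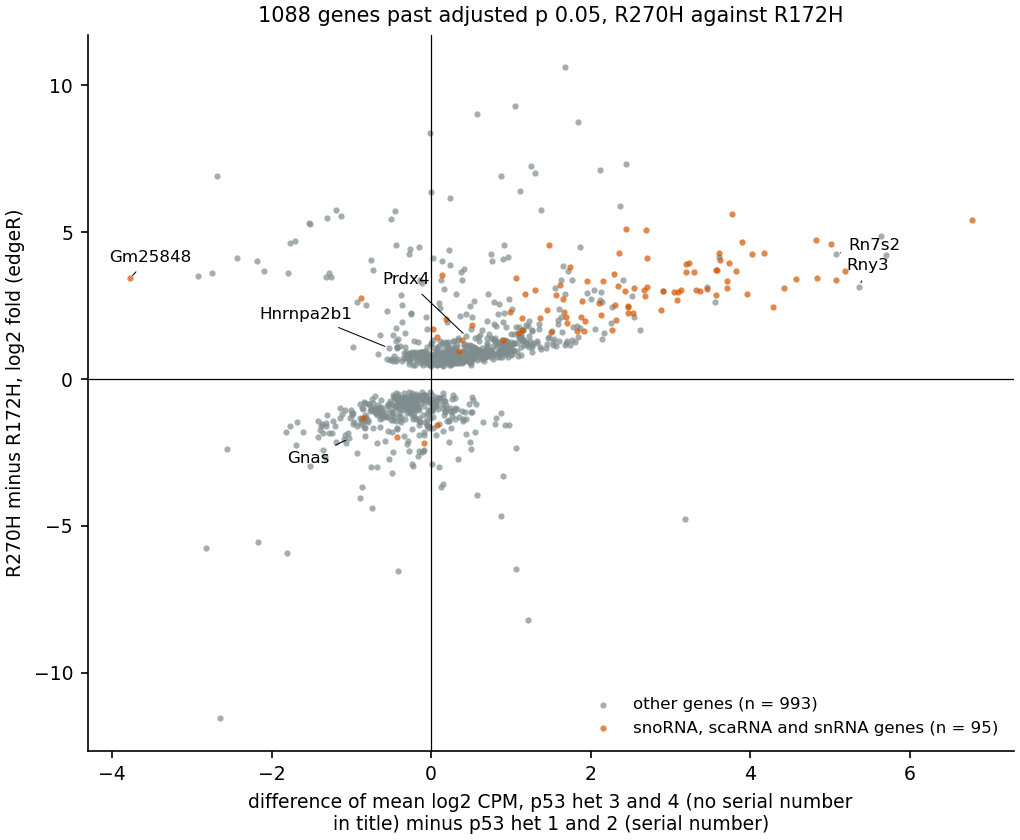
Each point is 1 of the 1088 called genes, with its log2 fold of R270H minus R172H on the vertical axis and its log2 difference of p53 het without minus with serial number on the horizontal axis. Orange points are the 95 called snoRNA, scaRNA and snRNA genes, most of which lie at the upper right, while Gm25848 lies at the upper left.

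Small nuclear and nucleolar RNAs made up a large group of the higher genes. snoRNAs guide the chemical modification of other RNAs, mainly of ribosomal RNA: H/ACA snoRNAs guide pseudouridylation, C/D snoRNAs guide 2'-O-methylation, and scaRNAs do the same for spliceosomal RNA. Most mouse snoRNAs are cut out of introns of host genes. The sequences are shown for 3 of them, because Snora69 had the lowest p of any snoRNA, Snora21 was chosen by its fold, and Gm25848 was the only gene called with title style as a covariate (it was chosen after its values were seen). All are from GENCODE M21 on GRCm38, read on the minus strand from chrX:37082912-37083042, chr11:97781639-97781775 and chr16:32243712-32243855, with the ACA box that ends an H/ACA snoRNA in capitals.
Snora69: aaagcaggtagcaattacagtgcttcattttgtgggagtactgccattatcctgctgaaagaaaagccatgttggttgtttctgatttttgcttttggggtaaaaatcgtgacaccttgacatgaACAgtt
Snora21: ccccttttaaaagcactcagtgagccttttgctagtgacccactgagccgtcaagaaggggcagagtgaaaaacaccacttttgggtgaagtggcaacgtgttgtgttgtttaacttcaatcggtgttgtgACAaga
Gm25848: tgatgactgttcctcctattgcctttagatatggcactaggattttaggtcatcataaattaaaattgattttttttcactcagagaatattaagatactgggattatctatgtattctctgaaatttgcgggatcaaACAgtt
An ACA followed by exactly 3 bases at the end was found in 35 of 42 Snora transcripts (83.3%), in 0 of 98 Snord transcripts and in 276 of all 1507 annotated snoRNA transcripts (18.3%).

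Snora69, within Rpl39 on chromosome X, stood at 28.9, 20.5, 87.1, 25.9 and 34.97 CPM in R270H tumours 1 to 5, against a lowest of 0.555, a median of 1.08 and a highest of 2.20 CPM in R172H tumours. The groups were far apart, with R270H 3 highest, and the log2 fold was 5.07 ± 0.74 (SE, edgeR adjusted p = 0.00449). It stood at 25.7 and 4.62 CPM in p53 het 3 and 4, against 2.03 and 1.29 CPM in p53 het 1 and 2, and its log2 fold with title style as a covariate was 1.89. Rpl39, which encodes a protein of the large ribosomal subunit and was looked at after the values of Snora69 were seen, averaged 215 ± 75.3 CPM in R270H and 39.3 ± 6.81 CPM in R172H tumours (SD), a log2 fold of 2.45 ± 0.44. The sources used here do not say whether counting used the strand, and reads of an intronic snoRNA and of its host cannot be fully separated. Snora21, within Rpl23, stood at 27, 17.0, 29.4, 22.6 and 28.1 CPM in R270H tumours, against 0.797, 1.34 and 2.39 CPM (lowest, median, highest) in R172H tumours. That log2 fold of 4.05 ± 0.76 (adjusted p = 0.0109) was -0.35 with title style as a covariate. The host Rpl23 was not called.

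Gm25848, a snoRNA gene known by a model number and placed within Fbxo45, did not go the same way in p53 het as between R270H and R172H tumours. It stood at 72.6, 68.0, 59.6, 49.2 and 68.3 CPM in R270H tumours, against 1.91, 6.10 and 9.22 CPM (lowest, median, highest) in R172H tumours. In p53 het it was lower without the serial number (0.374 and 0.229 CPM) than with it (3.56 and 7.33 CPM). The log2 fold was 3.43 ± 0.67 (adjusted p = 0.0122), remained called without each of the 11 libraries, and was 7.61 ± 0.98 (edgeR adjusted p = 0.0154) with title style as a covariate.

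Higher calls were common across the snoRNAs. Of 175 tested, 68 were higher (38.9%, against 3.41% of all genes) and 0 lower by edgeR, while 15 had a negative fold at an unadjusted p under 0.05 and DESeq2 called 6 lower. Without R172H 1 or R172H 3 the number of higher snoRNAs was 44, and it was 46 to 68 without any other library. By kind as read from the symbol, 10 of 15 H/ACA (Snora), 9 of 33 C/D (Snord) and 49 of 127 other snoRNA genes were higher. Gm25848 counts among the other snoRNA genes. Of 16 scaRNAs, which are not among the 175, 7 were higher. In this order, the median log2 folds over all tested genes of each kind were 2.19, 1.05, 0.97 and 1.90. With title style as a covariate these medians were -0.31, -0.45, -0.41 and 0.14. In p53 het without minus with serial number they were 2.27, 1.22, 0.99 and 1.84. snoRNA genes took 0.377 to 0.459% of all counts in R270H and 0.0825 to 0.227% in R172H libraries, without overlap. They took 0.635% and 0.207% in p53 het 3 and 4, against 0.152% and 0.160% in p53 het 1 and 2. The share of snRNA genes, the RNA parts of the spliceosome, was 0.629 to 0.901% in R270H and 0.0597 to 0.147% in R172H libraries. It was 1.34% and 0.425% in p53 het 3 and 4, against 0.0674% and 0.115% in p53 het 1 and 2. Of 140 snRNA genes, 16 were higher (11.4%, against 3.41% of all genes) and 4 lower (2.86%, against 1.87%) by edgeR. When 1 library was left out, 6 to 15 were higher and 1 to 3 lower. Among 61 higher snoRNAs with a tested host gene, the host was also higher for 11, not called for 49 and lower for 1. Over all genes, 3.41% were higher. The median log2 fold was 0.48 over the 56 different hosts, against 2.98 over these snoRNAs.

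Of 21 tested genes in a list of non-polyadenylated RNAs, edgeR called 3, all higher (14.3%, against 3.41% of all genes): Rn7s6, Rn7s2 and Rny3. DESeq2 and limma voom each called 8 higher. The summed list overlapped between the groups, at 29410 to 52711 CPM in R270H and 21148 to 55693 CPM in R172H libraries. The 7SL RNA copies Rn7s6 and Rn7s2, which encode the RNA scaffold of the signal recognition particle, had among the largest folds without overlap. Rn7s6 (chromosome 6, 69516339 to 69516629) stood at 7.46, 5.72, 18.1, 9.31 and 8.06 CPM in R270H tumours, against 0.148, 0.307 and 0.515 CPM (lowest, median, highest) in R172H tumours, a log2 fold of 4.87 ± 0.89. Rn7s2 (chromosome 12, 69361182 to 69361481) stood at 6.77, 6.47, 12.8, 6.83 and 7.61 CPM in R270H tumours, against 0.111, 0.377 and 0.759 CPM in R172H tumours, a log2 fold of 4.27 ± 0.80. Their adjusted p-values were 0.0107 and 0.0113. They are 85.0% identical (260 of 306 aligned positions), so reads can be shared between them, and their folds turned to -1.03 and -0.93 with title style as a covariate. Rny3, a Y RNA that binds Ro60, stood at 134, 120, 254, 110 and 133 CPM in R270H tumours, against 8.53, 11.2 and 41.7 CPM in R172H tumours. It stood at 3056 and 709 CPM in p53 het 3 and 4, against 35.03 and 35.9 CPM in p53 het 1 and 2, and lost its call (adjusted p = 0.0398) without any of 10 of the 11 libraries.

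Among protein-coding genes, the higher calls of lowest p included several RNA-binding proteins. Tardbp (chromosome 4, 148612382 to 148627019), which encodes TDP-43, stood at 227, 191, 204, 229 and 199 CPM in R270H tumours, against 96.2, 110 and 122 CPM (lowest, median, highest) in R172H tumours. All R270H libraries lay above all R172H libraries, at a log2 fold of 0.94 ± 0.13. Hnrnpa2b1 (chromosome 6, 51460932 to 51469894), an hnRNP that binds nascent RNA, stood at 519, 451, 398, 532 and 577 CPM in R270H tumours, against 200.6, 235 and 294 CPM in R172H tumours. In p53 het it went the other way (223 and 211 CPM without the serial number, 278 and 353 CPM with it), and its log2 fold was 1.06 ± 0.16, and 1.60 ± 0.27 (not called, edgeR adjusted p = 0.162) with title style as a covariate. Lsm8 (chromosome 6, 18848579 to 18855751), part of the Lsm ring that binds U6 snRNA, stood at 32.1, 31.3, 31.2, 35.2 and 34.5 CPM in R270H tumours, against 11.3, 13.4 and 15.6 CPM in R172H tumours, a log2 fold of 1.28 ± 0.19. The adjusted p of each of these 3 genes was 0.00449.

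Other higher genes of lowest p act in protein folding, translation and metabolism. Prdx4 (chromosome X, 155323918 to 155340754), the peroxiredoxin of the endoplasmic reticulum, stood at 147, 136, 171.5, 89.1 and 104 CPM in R270H tumours, against 41.0, 44.4 and 63.0 CPM (lowest, median, highest) in R172H tumours. It had the lowest p of the higher genes (log2 fold 1.46 ± 0.20, adjusted p = 0.00449), and p53 het stood at 84.2 and 71.7 CPM without and 57.1 and 57.4 CPM with the serial number. Rpl10, a protein of the large ribosomal subunit whose gene holds Snora70, stood at 220, 210, 326, 240 and 189 CPM in R270H tumours, against 65.0, 75.3 and 101 CPM in R172H tumours (log2 fold 1.55 ± 0.23). Etfa, a subunit of the electron transfer flavoprotein of fatty acid oxidation, stood at 52.7, 56.0, 54.0, 72.7 and 48.2 CPM in R270H tumours, against 26.02, 27.6 and 34.6 CPM in R172H tumours (log2 fold 0.99 ± 0.15). Neither gene overlapped between the groups. Gt(ROSA)26Sor, the noncoding transcript of the ROSA26 locus, stood at 18.8, 19.6, 21.6, 15.7 and 19.9 CPM in R270H tumours, against 4.68, 5.38 and 7.15 CPM in R172H tumours (log2 fold 1.76 ± 0.26). It lies antisense to Thumpd3 and Tardbp overlaps Masp2 on the other strand; neither partner was called, and without a known strand setting such reads cannot be told apart.

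A few genes with large folds were low in most libraries. Muc2, a secreted mucin of the gut, stood at 0.595, 0.308, 0.381, 21.3 and 0.487 CPM in R270H tumours, against 0.134, 0.216 and 0.296 CPM in R172H tumours. The fold of 4.40 ± 1.03 rested on R270H 4, was 1.02 without it, and lost its call without that library, R172H 1 or R172H 3. Pdzk1ip1, a small membrane protein of epithelia, stood at 0.366, 0.704, 0.381, 4.30 and 4.604 CPM in R270H tumours, against 0, 0.0595 and 0.344 CPM in R172H tumours (log2 fold 4.16 ± 0.97), and lost its call without R172H 1 or R172H 3. Wfdc21, a secreted WAP-domain protein, stood at 0.869, 1.54, 0.423, 2.66 and 9.16 CPM in R270H tumours, against 0.0446, 0.160 and 0.301 CPM in R172H tumours. Its log2 fold of 4.14 ± 0.79 (adjusted p = 0.0119) remained called without each library, and was 3.81 with title style as a covariate.

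**Figure D2:**
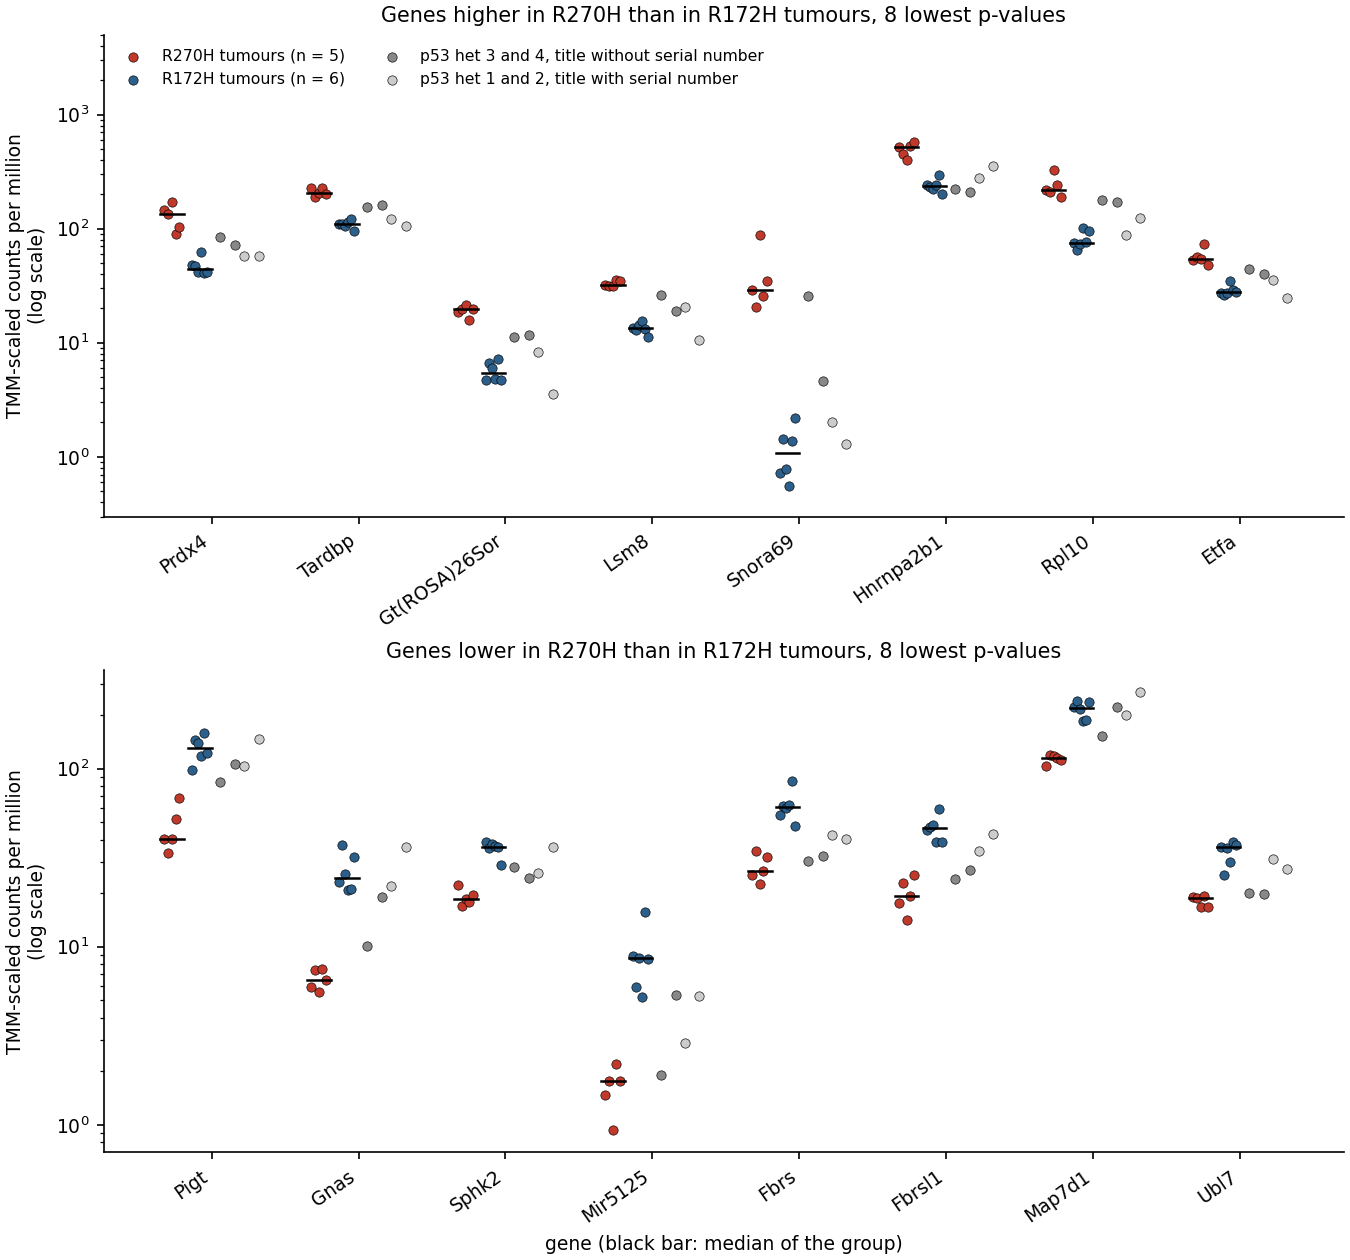
TMM-scaled CPM (log axis) of the 8 higher and 8 lower genes of lowest p in R270H tumours (red), R172H tumours (blue) and p53 het tumours (grey by title style), with a bar at each group's median. Red and blue points do not overlap for any of the genes drawn.

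The lower genes were led by Pigt and Gnas. Pigt (chromosome 2, 164497520 to 164508301), a subunit of the transamidase that attaches GPI anchors, stood at 40.1, 33.4, 40.3, 51.8 and 68.5 CPM in R270H tumours, against 98.4, 131 and 160 CPM (lowest, median, highest) in R172H tumours. The groups were apart at a log2 fold of -1.48 ± 0.21 (adjusted p = 0.00449), which was -1.09 with title style as a covariate. Gnas (chromosome 2, 174284320 to 174346744), the imprinted gene of the stimulatory G protein alpha subunit, stood at 5.90, 7.39, 5.58, 7.502 and 6.46 CPM in R270H tumours, against 20.7, 24.4 and 37.3 CPM in R172H tumours. Its log2 fold was -2.02 ± 0.29 (adjusted p = 0.00449), and -1.02 with title style as a covariate. Gnas overlaps Nespas on the other strand, which was not called.

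Sphk2, which makes the lipid signal sphingosine 1-phosphate, stood at 22.3, 16.9, 18.6, 17.8 and 19.4 CPM in R270H tumours, against 28.7, 36.4 and 38.8 CPM in R172H tumours, a log2 fold of -0.91 ± 0.14. Sphk2 also has antisense neighbours, Dbp and Rpl18. The related genes Fbrs (fibrosin) and Fbrsl1 (fibrosin-like 1) were both lower. Fbrs stood at 25.2, 34.6, 22.4, 26.7 and 31.7 CPM in R270H tumours, against 47.8, 60.9 and 85.7 CPM in R172H tumours, and Fbrsl1 at 17.5, 22.7, 14.1, 19.3 and 25.3 CPM, against 38.6, 46.3 and 59.2 CPM. Their log2 folds were -1.14 ± 0.17 and -1.22 ± 0.19. Map7d1, a microtubule-associated protein, stood at 104, 120, 118, 114 and 112 CPM in R270H tumours, against 184, 219 and 241 CPM in R172H tumours (log2 fold -0.92 ± 0.15). Ubl7, a ubiquitin-like protein, stood at 19.04, 18.7, 16.7, 19.4 and 16.7 CPM in R270H tumours, against 25.4, 36.2 and 38.9 CPM in R172H tumours (log2 fold -0.91 ± 0.16). For each of these 5 genes every R270H library lay below every R172H library.

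Of the named genes, Sod3 had the largest negative fold, followed by the microRNA gene Mir5125, which is described further on. Sod3, the extracellular superoxide dismutase, stood at 8.19, 10.6, 12.9, 6.45 and 3.63 CPM in R270H tumours, against 13.9, 41.9 and 98.2 CPM in R172H tumours (log2 fold -2.45 ± 0.55, adjusted p = 0.0195; -2.31 with title style as a covariate). Cpxm1, a secreted member of the carboxypeptidase family, stood at 15.5, 29.96, 13.3, 30.8 and 17.0 CPM in R270H tumours, against 32.6, 135 and 149 CPM in R172H tumours (log2 fold -2.34 ± 0.52). It lost its call without R270H 1 or R270H 3, and its fold was -3.28 with title style as a covariate. Whrn, a PDZ scaffold protein of hair cells, stood at 6.96, 11.1, 12.1, 6.74 and 2.48 CPM in R270H tumours, against 21.1, 34.5 and 55.9 CPM in R172H tumours (log2 fold -2.17 ± 0.44). P2rx2, an ATP-gated ion channel, stood at 0.229, 0.704, 0.423, 0.337 and 0.398 CPM in R270H tumours, against 0.744, 1.91 and 4.597 CPM in R172H tumours (log2 fold -2.41 ± 0.65, adjusted p = 0.0405). It lost its call without R172H 1, R172H 2, R172H 6, R270H 1, R270H 3, R270H 4 or R270H 5. Zmiz1os1, antisense to the transcriptional coregulator gene Zmiz1, stood at 2.33, 2.38, 1.94, 2.23 and 2.57 CPM in R270H tumours, against 3.60, 6.27 and 18.9 CPM in R172H tumours (log2 fold -1.92 ± 0.40). Zmiz1, looked at after that value was seen, was itself lower. It averaged 92.9 ± 13.2 CPM in R270H and 256 ± 137 CPM in R172H tumours (SD), a log2 fold of -1.46 ± 0.34. Its call was lost without R270H 1, R270H 3 or R270H 4. Without a known strand setting, reads of Zmiz1os1 and Zmiz1 cannot be told apart, so these may not be separate results.

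MicroRNA genes were called in both directions in edgeR. Among 109 tested, 8 were lower (7.34%, against 1.87% of all genes) and 3 higher (2.75%, against 3.41%). The named lower genes included 2 microRNA genes, whose mature sequences are given from RefSeq (GRCm38.p6) with the seed, bases 2 to 8, in capitals. The counts are of the gene as annotated in a library of longer RNA, and do not measure the mature microRNA.
mmu-miR-5125: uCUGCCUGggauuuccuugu
mmu-miR-26b-5p: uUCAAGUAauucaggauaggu
mmu-miR-26b-3p: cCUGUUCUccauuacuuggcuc
The 3 seeds differ from each other. Mir5125, within Srrm2 on chromosome 17, stood at 1.46, 1.76, 0.930, 2.19 and 1.77 CPM in R270H tumours, against 5.22, 8.62 and 15.8 CPM in R172H tumours (log2 fold -2.44 ± 0.37, adjusted p = 0.00489; -2.28 with title style as a covariate). Mir26b, within Ctdsp1 on chromosome 1, stood at 0.458, 0.264, 0.254, 0.337 and 0.310 CPM in R270H tumours, against 0.963, 1.35 and 1.72 CPM in R172H tumours (log2 fold -2.03 ± 0.35, adjusted p = 0.00905). The R270H libraries were lower throughout for both, and neither host gene was called (Srrm2 adjusted p = 0.101, Ctdsp1 adjusted p = 0.124).

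Genes that p53 activates were almost all uncalled. Of 35 targets, 1 was higher and 0 lower (2.86%, against 5.28% of all genes), and their median log2 fold was 0.26 (0.17 without R270H 3 or R270H 4), against -0.02 over all tested genes. At an unadjusted p under 0.05, 5 targets were higher and 1 lower. Mdm2, the ubiquitin ligase of p53, averaged 70.7 ± 19.2 CPM in R270H and 51.6 ± 2.72 CPM in R172H tumours (SD), a log2 fold of 0.45 ± 0.18 that did not pass (adjusted p = 0.136). Cdkn1a, the cell cycle inhibitor p21, averaged 47.2 ± 27.9 CPM in R270H and 39.5 ± 17.0 CPM in R172H tumours (log2 fold 0.26 ± 0.38, adjusted p = 0.729). The called target was Perp, a desmosome component, whose values of 0.641, 1.01, 11.2, 49.1 and 0.708 CPM in R270H tumours were raised in R270H 3 and 4 only, against 0.558, 0.867 and 1.22 CPM in R172H tumours. Perp is also a gene of the epidermis list, and lost its call without any of 8 libraries. Of 22 genes reported as gain-of-function targets of mutant p53, Psma2 was higher and Kmt2d lower in edgeR (9.09% called, against 5.28% of all genes). DESeq2 and limma voom each called 1 higher and 3 lower. The median was -0.03, and lay between -0.09 and 0.11 without 1 library. The call of each depended on 9 of the 11 libraries.

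The lists of ribosomal proteins, ribosome biogenesis and the proteasome held higher calls and no lower ones in edgeR, DESeq2 and limma voom. Of 34 cytosolic ribosomal protein genes 8 were higher and 0 lower in edgeR (23.5%, against 3.41% higher over all genes), and 33 had a fold above 0, with a median of 0.66. Rpl5, a 60S protein that binds Mdm2 when ribosome assembly is disturbed, stood at 126, 74.5, 108, 171 and 125 CPM in R270H tumours, against 42.6, 45.2 and 60.5 CPM in R172H tumours (log2 fold 1.30 ± 0.22, adjusted p = 0.00746). Rpl22 stood at 318, 166, 182, 387 and 261 CPM in R270H tumours, against 73.6, 106 and 122 CPM in R172H tumours (log2 fold 1.35 ± 0.28, adjusted p = 0.0151). These 2 genes, Rpl10, Rpl13 and Rps19 remained called without each library, while Rpl34 and Rpl7 did not; the list held 7 calls without R172H 6, 11 without R270H 2 and 5 without any other library. This list also differed within p53 het: its median was 0.59 in p53 het without minus with serial number, and 0.19 with title style as a covariate.

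Of 24 MYC and ribosome biogenesis genes, 5 were higher in edgeR (Ncl, Gnl3, Nip7, Nop16 and Wdr12; 20.8%, against 3.41% of all genes), with a median of 0.35. Ncl, nucleolin of the nucleolus, stood at 312, 231, 250, 515 and 290 CPM in R270H tumours, against 163, 184 and 220 CPM in R172H tumours, and R270H 4 was highest. No gene of the list was called without R270H 4 or without R172H 3, and without R270H 4 its median was 0.07. The list held 1 to 3 calls without R172H 1, R172H 2, R172H 4, R172H 5, R270H 1 or R270H 3. Of 27 proteasome genes 4 were higher in edgeR (14.8%, against 3.41% of all genes; median 0.45), of which Psma3 and Psmd6, subunits of the core and of the regulatory lid, remained called without each library; these 2 were the only calls left without R172H 1, R172H 3, R270H 1, R270H 3 or R270H 4. Psmd6 stood at 81.0, 70.4, 87.2, 85.2 and 70.8 CPM in R270H tumours, against 34.2, 45.0 and 52.7 CPM in R172H tumours.

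Of 32 nuclear genes of oxidative phosphorylation, 6 were higher and 0 lower in edgeR (18.8%, against 3.41% higher over all genes), with a median of 0.42. DESeq2 called 7 higher and 1 lower, limma voom 10 higher and 1 lower, and 1 gene was lower at an unadjusted p under 0.05 in edgeR. Cox7c, a subunit of cytochrome c oxidase, stood at 21.7, 12.8, 14.5, 13.1 and 15.2 CPM in R270H tumours, against 4.95, 6.30 and 6.88 CPM in R172H tumours (log2 fold 1.34 ± 0.26, adjusted p = 0.0120). It was the one gene of the list to remain called without each library; Ndufs4 lost its call without R270H 1 alone, and Ndufa2, Cox7b, Atp5e and Atp5k without any of 7 to 11 libraries. Between 1 and 4 genes of the list were called when a library was left out, and its median was -0.49 with title style as a covariate and 0.69 in p53 het. Of 11 mitochondrially encoded genes none was called by edgeR (median -0.55). That median was 0.52 with title style as a covariate, and -1.36 in p53 het without minus with serial number. At an unadjusted p under 0.05 in edgeR, 3 of these genes were higher and 4 lower. DESeq2 called 3 lower, and limma voom 2 higher and 3 lower. Among the 3 higher genes, mt-Co2 averaged 0.506 CPM in R270H and 0.239 CPM in R172H tumours, near the limit of 3 counts. Among long noncoding RNAs of the nucleus, 4 of 16 were higher in edgeR (25%, against 3.41% of all genes), all snoRNA host genes (Snhg5, Gas5, Snhg1 and Snhg12), while DESeq2 and limma voom each called 5 higher and 1 lower. The list held 6 calls without R270H 2, 3 without R172H 1 and 2 without any other library. Gas5 stood at 125, 82.3, 102, 144 and 123 CPM in R270H tumours, against 39.4, 53.2 and 70.6 CPM in R172H tumours, and Gas5 and Snhg5 remained called without each library.

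Signalling, stress and patterning lists held few calls in edgeR. No gene passed in edgeR among 28 of mitosis, 29 of DNA replication, 24 of hypoxia and glycolysis, 22 of cholesterol synthesis, 33 of Wnt signalling, 16 of Notch signalling, 28 of the interferon response, 31 of limb patterning, or the 20 anterior and 12 posterior Hox genes. Over all 20 lists with no edgeR call, which hold 385 tested genes, 30 genes were higher and 21 lower at an unadjusted p under 0.05, and DESeq2 called 13 higher and 10 lower. When R172H 2 was left out, edgeR called 3 limb patterning genes. The medians of the lists named here lay between -0.32 (Wnt signalling) and 0.63 (posterior Hox genes), and several shifted without a single library. The median changed sign without some single library for cholesterol synthesis, anterior Hox genes and the interferon response. For the other lists named here it kept its sign. That of Wnt signalling was -0.19 without R172H 4 and -0.50 without R172H 5 or R270H 4, that of posterior Hox genes was 0.26 without R270H 4, and that of the interferon response was -0.09, and 0.89 without R172H 3. Of 30 TGF-beta and BMP genes 1 was lower and 1 higher (6.67%, against 5.28% of all genes). Tgfb1, the ligand stored in bone matrix, stood at 58.1, 60.1, 80.0, 74.4 and 81.5 CPM in R270H tumours, against 112, 152 and 185 CPM in R172H tumours (log2 fold -1.06 ± 0.20, adjusted p = 0.0108), and remained called without each library. Id3, a BMP-induced inhibitor of differentiation, stood at 318, 191, 464, 205 and 349 CPM in R270H tumours, against 105, 148 and 246 CPM in R172H tumours, and lost its call (adjusted p = 0.0437) without any of 8 libraries. Of 20 immediate early genes edgeR called 1 (5%, against 5.28% of all genes), DESeq2 2 and limma voom 3, all lower. Without R172H 5, R172H 6 or R270H 3, edgeR called 2. The edgeR call was Jund, an AP-1 subunit, at 7.60, 4.14, 8.20, 7.42 and 6.99 CPM in R270H tumours, against 11.4, 15.7 and 19.5 CPM in R172H tumours (log2 fold -1.19 ± 0.25). In edgeR Tap2 alone of 20 antigen presentation genes was called (5%, against 5.28% of all genes). Tap2 was lower and lost its call without any of 6 libraries. Cxcl5, the 1 call among 25 cytokine genes (4%, against 5.28% of all genes), was higher in edgeR and lost its call without any of 9 libraries. The direction of the cytokine calls depended on the tool, with 1 higher and 2 lower in DESeq2 and 0 higher and 2 lower in limma voom. Dnajc3 and Pdia6 of 23 stress response genes were higher in edgeR (8.7%, against 3.41% higher over all genes), and lost their calls without any of 5 and 9 libraries.

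**Figure D3:**
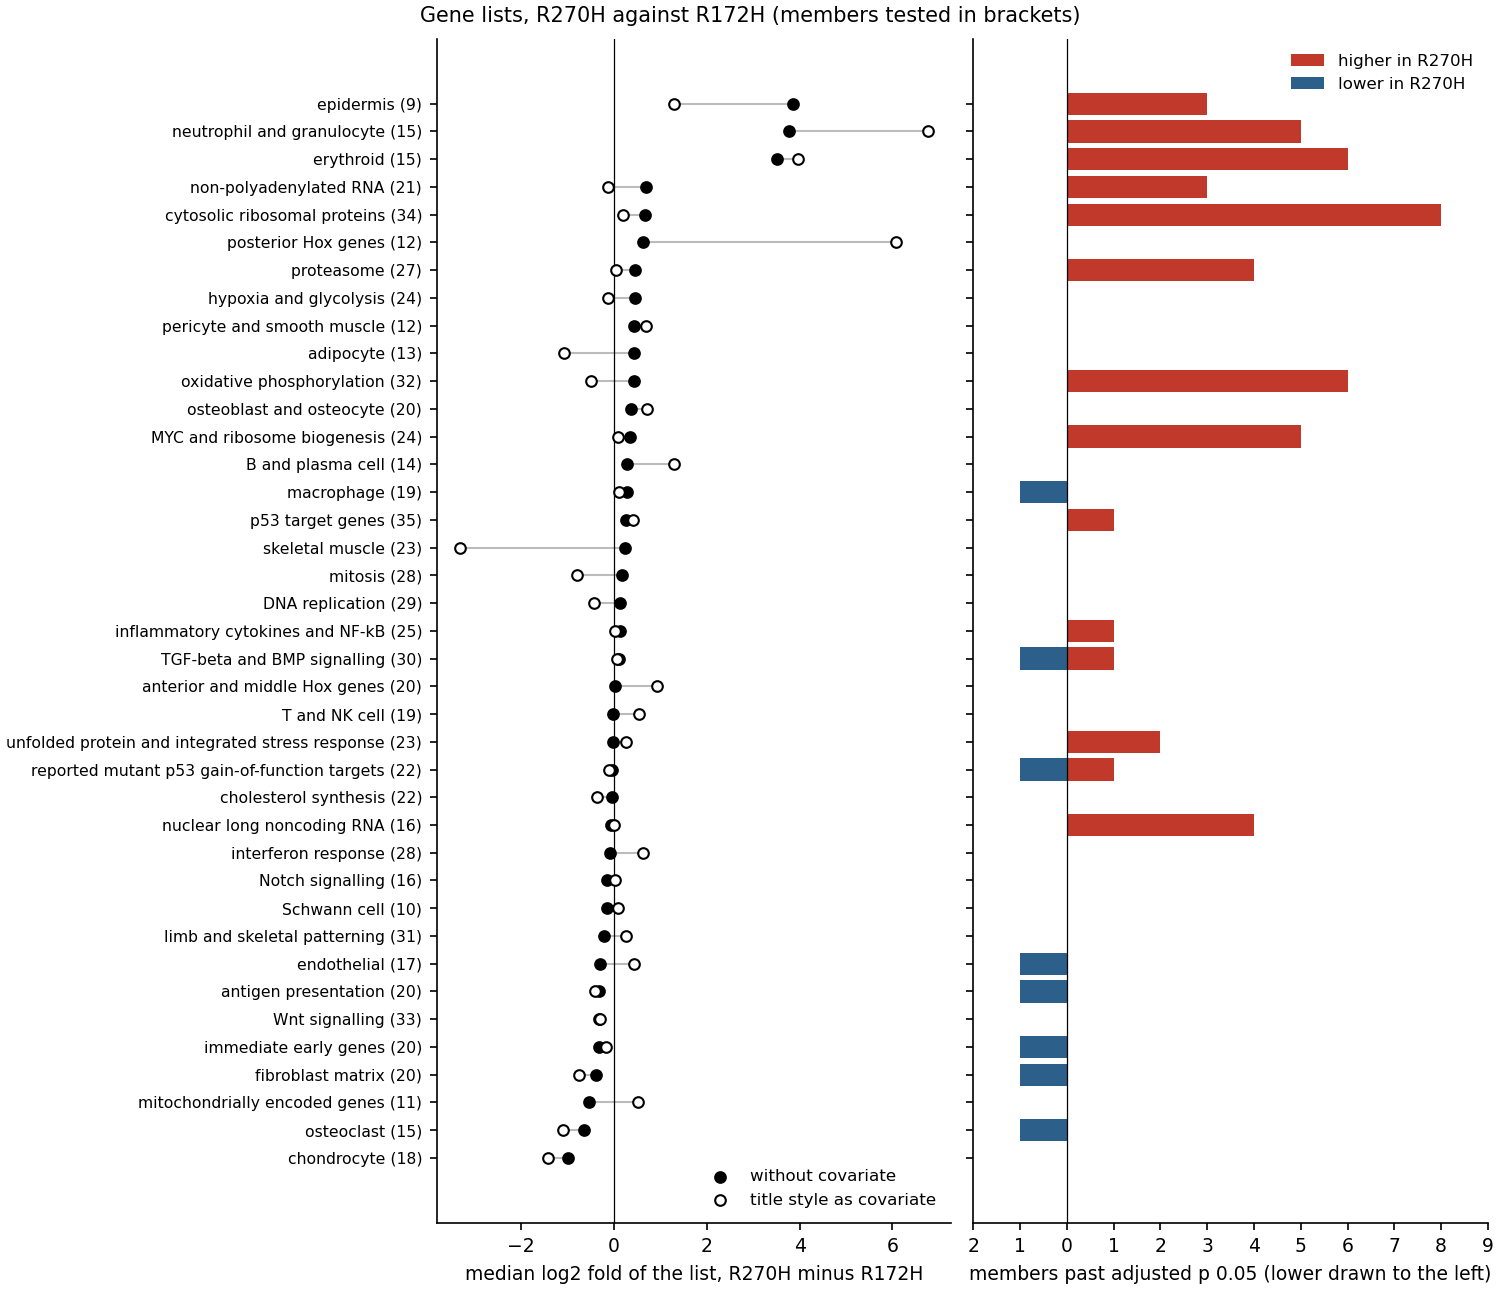
For the gene lists with their number of tested members in brackets, the left panel gives the median log2 fold over the tested members without (filled) and with (open) title style as a covariate, and the right panel the number of members called higher (red) or lower (blue) by edgeR. The edgeR calls drawn for the cytosolic ribosomal protein, oxidative phosphorylation and proteasome lists are higher ones (DESeq2 and limma voom each called 1 oxidative phosphorylation gene lower), and the open symbols of these lists lie to the left of the filled ones.

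Lists of cell types were described next, and in bulk tissue fewer cells of a type and less RNA per cell cannot be told apart. No gene passed in edgeR in the osteoblast and osteocyte list (0 of 20, median 0.36, and -0.10 without R270H 3 and 0.20 without R172H 4; 3 higher and 1 lower at an unadjusted p under 0.05, and 1 higher by DESeq2), whose summed level was 45560 to 139020 CPM in R270H and 32638 to 133980 CPM in R172H libraries. Runx2, the master regulator of osteoblasts, stood at 233, 291, 159, 212 and 213 CPM in R270H tumours, against 231.8, 265 and 481 CPM in R172H tumours, and did not pass (adjusted p = 0.200). Of 15 osteoclast genes 13 were below 0 (median -0.64) and 1 passed (6.67%, against 5.28% of all genes). This was Nfatc1, the transcription factor that drives osteoclast formation. It stood at 90.3, 136, 148, 31.4 and 117 CPM in R270H tumours, against 252, 344 and 459 CPM in R172H tumours. Its log2 fold of -1.71 ± 0.45 (adjusted p = 0.0366) lost its call without any of 8 libraries. The summed osteoclast level was 5273, 6625, 12447, 631 and 5284 CPM in R270H tumours, against 8585, 9162 and 12728 CPM in R172H tumours, and R270H 4 was lowest. Of 19 macrophage genes edgeR called 1 (5.26%, against 5.28% of all genes): Cd68, a lysosomal protein, was lower. The median of the list was 0.27 (0.10 to 0.44 without 1 library, lowest without R270H 1). Of 20 fibroblast matrix genes edgeR called 1 (5%, against 5.28% of all genes): Fn1, fibronectin, was lower. DESeq2 called 1 gene of the list higher and 1 lower, and limma voom 2 lower. The median of that list was -0.38, and -0.19 without R172H 4 and -0.57 without R172H 2. The calls of Cd68 and Fn1 were lost without any of 10 and 9 of the 11 libraries. Of 17 endothelial genes edgeR called 1 (5.88%, against 5.28% of all genes): Sox18, a transcription factor of vessel development, stood at 15.5, 10.8, 8.75, 9.69 and 13.6 CPM in R270H tumours, against 20.6, 30.6 and 45.1 CPM in R172H tumours. The groups did not overlap, and the log2 fold of -1.43 ± 0.32 (adjusted p = 0.0197) lost its call without R270H 3 and was -0.05 with title style as a covariate. No gene passed in edgeR among 23 skeletal muscle, 18 chondrocyte, 14 B and plasma cell, 19 T and NK cell, 12 pericyte, 13 adipocyte, 10 Schwann cell and 2 tested lung epithelium genes, while edgeR called 2 chondrocyte genes when R270H 2 was left out.

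The summed levels of neutrophil and of erythroid genes were highest in R270H 5, and that of epidermal genes in R270H 4. All 15 neutrophil and granulocyte genes tested had a fold above 0 (median 3.77) and 5 were called higher in edgeR (33.3%, against 3.41% of all genes), with no gene free of overlap. S100a9, a calcium-binding protein of neutrophils, stood at 27, 40.5, 5.41, 7.75 and 406 CPM in R270H tumours, against 0.179, 0.782 and 7.36 CPM in R172H tumours. The summed list was at 118, 196, 32.8, 104 and 1683 CPM in R270H tumours, against 13.2, 28.7 and 65.0 CPM in R172H tumours, so R270H 1, 2, 4 and 5 lay above all R172H libraries, R270H 5 by far the most, and R270H 3 within their range. Without R270H 5, or without R172H 1, no gene of the list was called; without R270H 5 the median was 1.85. It held 1 or 2 calls without R172H 2, R172H 3, R172H 4, R172H 6 or R270H 1. Of 15 erythroid genes 6 were called higher in edgeR (40.0%, against 3.41% of all genes), with a median of 3.52 and no gene free of overlap. DESeq2 called 8 higher and limma voom 2. The summed erythroid list was at 466, 465, 800, 185 and 2429 CPM in R270H tumours, against 290, 367 and 656 CPM in R172H tumours, and no gene was called without R270H 5, R172H 1, R172H 3 or R172H 4. The median without R270H 5 was 0.96, and 1 to 3 genes were called without R172H 2, R172H 5, R172H 6 or R270H 1. No marker of either list was at 0 throughout a group.

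Of 15 epidermal genes in the list 9 were tested, and 3 were higher in edgeR (33.3% of those tested, against 3.41% of all genes), namely Ly6d, Krt14 and Perp. The count filter can keep a gene that is high in a few libraries only. This share is therefore not independent of the values in R270H 3 and 4, and is no separate support. DESeq2 called 3 higher and limma voom 0. Krt14, the keratin of basal keratinocytes, stood at 0.229, 0.176, 42.6, 62.5 and 0.841 CPM in R270H tumours, against 0, 0.0743 and 0.491 CPM in R172H tumours, and was high in R270H 3 and 4. The summed list was at 10.9, 13.3, 89.7, 453 and 9.03 CPM in R270H tumours, against 5.16, 11.02 and 22.6 CPM in R172H tumours, so R270H 3 and 4 lay above all R172H libraries. Krt15, Dsg3 and Ivl were at 0 in all R172H libraries. Without R270H 4 no epidermal gene was called and the median was 1.95, and 1 gene was called without R270H 3, R172H 1, R172H 3, R172H 4 or R172H 5. The part of these cell type markers in the other results was not tested.

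**Figure D4:**
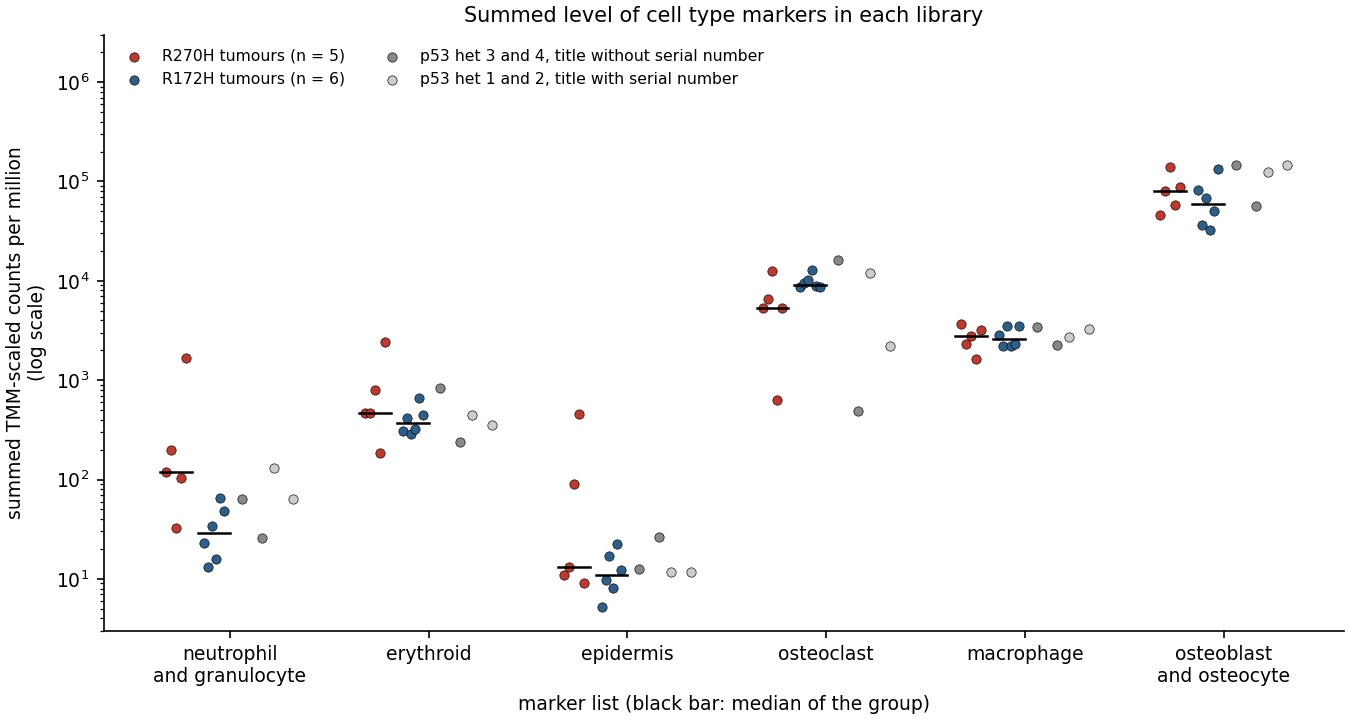
Summed TMM-scaled CPM (log axis) of 6 cell type lists in each R270H (red), R172H (blue) and p53 het (grey) library, with a bar at each group's median. R270H 5 stands at 1683 for neutrophil and 2429 for erythroid genes, R270H 4 at 453 for epidermal and 631 for osteoclast genes.

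Calls followed base composition. In the quintile of genes with the lowest GC content of their transcripts (28.2 to 43.2%), 255 of 4113 genes were higher (6.20%) and 34 lower (0.83%). In the quintile with the highest (54.8 to 75.5%), 58 of 4111 were higher (1.41%) and 176 lower (4.28%). Over all genes, 3.41% were higher and 1.87% lower. The median log2 fold was 0.13 in the lowest and -0.19 in the highest quintile. In p53 het without minus with serial number, the medians of the quintiles stayed between -0.04 and 0.05. With title style as a covariate the medians were 0.19 and -0.22. After each library's trend with GC content was removed, 827 genes were called, 523 higher and 304 lower. Of the 321 genes that remained called without each library, 304 were also called by DESeq2, by limma voom and after removal of GC and length trends.

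Higher calls were not spread evenly over the chromosomes, which was looked at after the calls were seen. On chromosome 13, 78 of 559 protein-coding genes were higher (14.0%) and 0 lower in edgeR, with 18 lower at an unadjusted p under 0.05 and 6 lower in DESeq2, against 3.15% higher on all others. Of the 559 genes 426 (76.2%) had a fold above 0, with a median of 0.36, against 0.03 elsewhere. The median on chromosome 13 was 0.38 with title style as a covariate, 0.33 after removal of the GC trend (50 higher and 2 lower) and -0.04 in p53 het without minus with serial number. With the covariate no chromosome 13 gene was called. In bins of 10 Mb the median lay between 0.23 and 0.71, highest from 60 to 70 Mb, where 13 of 63 genes were higher. Each library's median deviation on chromosome 13 was 0.40, 0.11, 0.25, -0.02 and 0.01 in R270H tumours, against a lowest of -0.26 and a highest of -0.01 in R172H tumours, on the log2 scale over 505 genes. The deviation was thus largest in R270H 1 and 3. The count of 78 was below 52 without R270H 1 (35), R270H 3 (39), R172H 1 (46), R172H 3 (39), R172H 4 (48), R172H 5 (49) or R172H 6 (49).

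The 8 chromosome 13 genes of lowest p were Snrnp48, Zfp825, Trim23, Hnrnpa0, Tmed9, Txndc15, Hnrnpk and Serpinb6a, and their groups did not overlap. Snrnp48, a protein of the minor spliceosome, stood at 28.1, 22.1, 20.8, 16 and 15.2 CPM in R270H tumours, against 7.28, 9.01 and 11.5 CPM in R172H tumours (log2 fold 1.16 ± 0.18, adjusted p = 0.00527). Hnrnpk, an RNA-binding protein, stood at 404, 340, 446, 313 and 302 CPM in R270H tumours, against 200, 216 and 231 CPM in R172H tumours (log2 fold 0.75 ± 0.13, adjusted p = 0.0102). Both were highest in R270H 1 or 3, and all 8 genes remained called without each library. After chromosome 13, the share of higher genes was largest on X (35 of 510, 6.86%, median 0.28), where R270H 2 and 3 had deviations of 0.46 and 0.39. The count of 35 was 13 without R270H 3, 22 without R270H 1, and 17, 22, 16, 20 and 19 without R172H 1, 2, 3, 5 and 6, and the median was 0.16 without R270H 2 and 0.19 without R270H 3. DNA copy number was not measured, so its part was not tested.

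**Figure D5:**
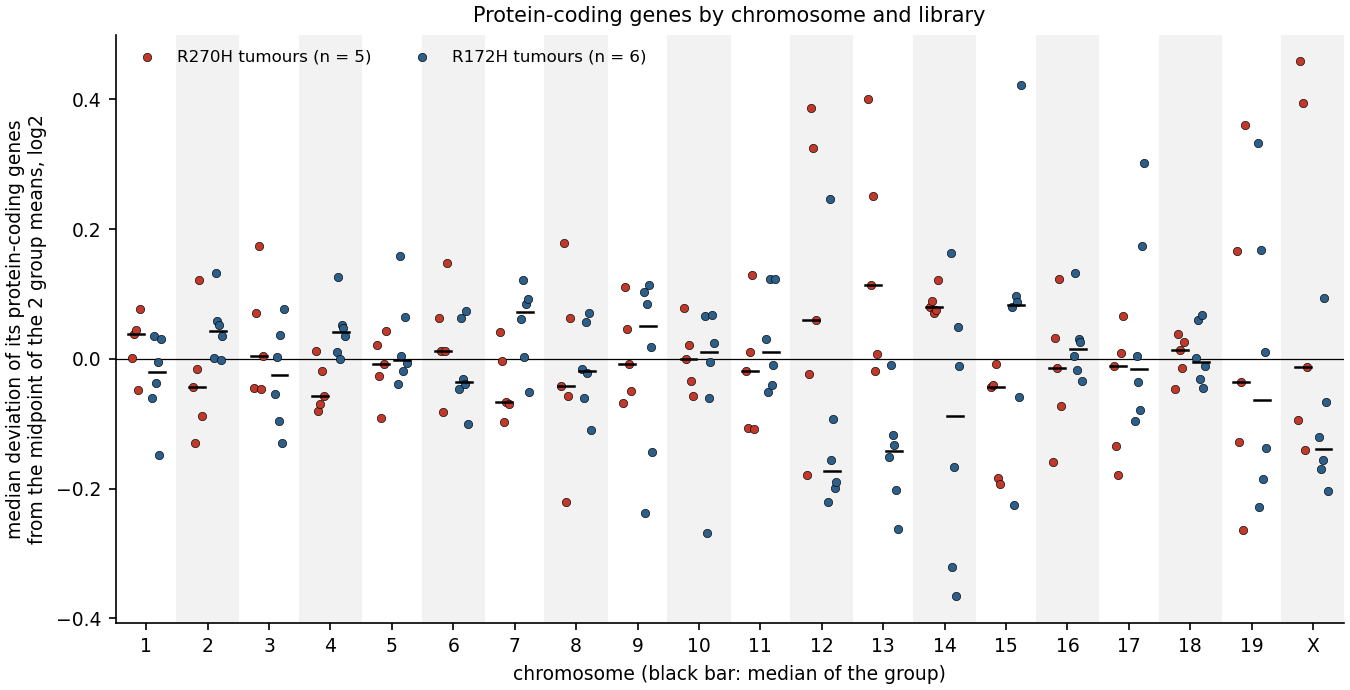
For each chromosome, the median deviation of its protein-coding genes from the midpoint of the group means (log2, after removal of each library's median) is drawn for R270H (red) and R172H (blue) libraries, with a bar at each group's median. On chromosome 13 the R270H libraries run from -0.02 to 0.40 and the R172H libraries from -0.26 to -0.01.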

How the data were processed

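The deposited table holds raw counts of reads per gene, 1 column per library, made by the authors. Reads were aligned to GRCm38 with STAR 2.6.0b and groups compared with DESeq2, per the submitters' processing notes, and checked with FastQC, per the series' design text. The counting program, its annotation and its strand setting are not given in the sources used here. Of 49585 gene IDs, 49326 matched GENCODE M21 (GRCm38), which gave names, positions and GC content.

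Counts of the 18 tumours of the series were fitted in R 4.3.3 with edgeR 4.0.16: filterByExpr (minimum count 10, minimum total count 15), TMM scaling, a mean per genotype, the quasi-likelihood test with 14 residual degrees of freedom and Benjamini-Hochberg adjustment at 0.05. R270H (n = 5) was contrasted with R172H (n = 6), and the 2 libraries of a cell line were not used. log2 CPM used a prior count of 2. Standard errors were obtained by dividing a log2 fold by the root of its F statistic. Trp53 was also tested by exact permutation. The fit was tested on simulated data.

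Named genes are the 8 of lowest p in each direction and the 6 of largest fold among non-overlapping called genes with a mean of at least 1 CPM in the higher group, leaving out pseudogenes, antigen receptor segments and genes without a proper symbol, plus Trp53, Cdkn1a and Mdm2 and up to 4 members of lowest p of each gene list. Other list members named, the chromosome 13 genes, Gm25848, Rpl39 and Zmiz1 were chosen after their values were seen. The comparison, the gene lists and the rule were chosen with earlier results of these data known. Of 863 list symbols 6 were not matched. Alternatives were DESeq2 1.42.0 and its size factors, limma 3.58.1 voom with quality weights, other filters, only the 2 groups, title style or a skeletal muscle score as a covariate, removal of each library's GC trend (lowess, span 0.3), and leaving out each library. Removal of GC and length trends was added after the data were seen. A called member of the ribosomal protein list is counted but not named here.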

Additional observations from a re-analysis of the deposited data

Results flagged for a closer look

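Among 192 combinations of a named gene and a group, 10 held a library whose gap to its nearest neighbour, on the log2 scale, exceeded Dixon's 95% limit for the group's range, where chance gives about 1 in 20. In R270H tumours, Muc2 was at 21.3 CPM in R270H 4, against 0.308 to 0.595 CPM in the others. Rn7s2 was at 12.8 CPM in R270H 3, against 6.47 to 7.61 CPM in the others, and Rny3 at 254 CPM in the same library, against 110 to 134 CPM. Ndufs4, a subunit of respiratory complex I, was at 47.8 CPM in R270H 1, against 30.3 to 32.2 CPM in the others. Jund was at 4.14 CPM in R270H 2, against 6.99 to 8.20 CPM, and Rpl34, a ribosomal protein gene, at 161 CPM in the same library, against 256 to 288 CPM. Mmp8, the neutrophil collagenase, was at 200 CPM in R270H 5, against 3.33 to 10.7 CPM. In R172H tumours, Etfa was at 34.6 CPM in R172H 4, against 26 to 28.8 CPM in the others, and Sphk2 at 28.7 CPM in R172H 6, against 35.8 to 38.8 CPM. Atp5e, a subunit of ATP synthase, was at 36.7 CPM in R172H 6, against 24.5 to 27.6 CPM. The causes were not tested.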

How the results depend on the processing

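Against 1088 called genes (703 higher and 385 lower in R270H), DESeq2 called 2226 (1216 and 1010), limma voom with quality weights 2294 (1330 and 964), a fit of only the 2 groups 1638 (700 lower), no low-count filter 633 (456 and 177), and title style as a covariate 1 (1 higher and 0 lower). Without 1 library the count ran from 469 to 990, with 293 to 644 higher and 126 to 346 lower. DESeq2 size factors, a mean of at least 1 CPM, a skeletal muscle score as a covariate and both trend removals kept these counts within 1.5 times. The difference in Trp53 ran from -0.58 to -0.32 without 1 library, with exact permutation p between 0.0476 and 0.224.

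Of 92 called genes followed singly, 1 (Gm25848) remained called with title style as a covariate, 83 lost their call and 8 turned: Rn7s6 to -1.03, Rn7s2 to -0.93, Snora21 to -0.35, Ndufa2 to -0.98, Atp5e to -0.85, Atp5k to -0.49, Rny3 to -2.58 and Snhg1 to -0.12. That covariate rests on 4 p53 het libraries. Of uncalled genes, Runx2 was at 0.11 with the covariate and Cdkn1a between -0.15 and 0.48 without 1 library. Of the 92 called genes, DESeq2 called in the same direction all 89 to which it gave an adjusted p. After removal of GC and length trends, 20 of the 92 lost their call. No paired analysis was possible because the replicate numbers follow accession order. With 5 and 6 tumours, no known batches and a strand setting that is not given, small changes, title style and antisense partners could not be resolved.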
